A study of Caenorhabditis elegans with 6 samples.

Results

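Autophagy encloses cytoplasm, protein aggregates or organelles in a double membrane and delivers them to lysosomes. A kinase complex starts it, a lipid kinase complex marks the membrane, ubiquitin-like proteins are attached as the membrane grows, and receptors pick the cargo. The kinase TOR, active in fed animals, holds the pathway back, while AMP-activated kinase (AMPK) acts in the opposite direction. In Caenorhabditis elegans these genes are used in many tissues, and autophagy is known for its part in clearing aggregating proteins and in long life. The group described here holds 35 of the 22407 genes with counts: 30 autophagy genes and 5 genes of TOR and AMPK. They were chosen by name, as every gene called atg or epg with a number, plus 15 named genes of the same pathways (lgg-1, lgg-2, lgg-3, bec-1, unc-51, sqst-1, vps-34, allo-1, mtm-3, rab-7, let-363, daf-15, raga-1, ragc-1 and aak-2).

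RNA-seq gene counts came from 6 libraries of pooled whole worms of strain AM140, a polyglutamine model. All 6 carried the transgene rmIs132 [unc-54p::Q35::YFP], which puts a stretch of 35 glutamines fused to yellow fluorescent protein into body wall muscle through the unc-54 promoter. The 3 control libraries (EV) came from worms fed HT115 bacteria with an empty vector, and the 3 others (gtr-1 RNAi) from worms fed HT115 bacteria expressing RNAi against the 3'UTR of gtr-1. The libraries of the groups are called EV 1 to 3 and RNAi 1 to 3 after the replicate numbers in their titles. In both groups parent and offspring generations ate the same bacteria at 20 °C. Eggs were obtained by bleaching parents on adult day 1, and the animals of generation 2 were taken on day 6. The labels leave out whether these were independent cultures. The p-values therefore describe variation among the libraries at hand, part of which may be technical.

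The libraries held between 33254426 and 41902475 counts. The targeted gene, gtr-1, had few counts, 16 to 25 in the EV libraries and 19 to 24 in those labelled gtr-1 RNAi. Its log2 fold change by edgeR was -0.01, with a 95% interval of -0.66 to 0.64. These counts cannot show whether gtr-1 was lowered, so the libraries are named by their label only. On the first principal component of all genes tested, which held 72.7% of the variance, RNAi 3 lay at -6.62, between EV 1 at -19.2 and RNAi 1 at 41.8, so results are also given without that library where it matters. All 10 listed markers of intestine, neurons, germline and oocytes, and epidermis, and 9 of 10 of body wall muscle, had counts in these whole worms.

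All 35 genes passed the filter on low counts. Per kilobase of exon, 34 of them stood above the median of all genes tested in the EV libraries (median percentile 78.5). The highest level was that of lgg-1, the ubiquitin-like protein of the GABARAP type that coats autophagosomes, at 608.8 CPM (counts scaled to library size) per kilobase. The small GTPase gene rab-7 followed at 146.2, then allo-1, the receptor for paternal mitochondria, at 138.7, and lgg-2, the LC3-type relative of lgg-1, at 137.9. At the other end, atg-10, the enzyme that attaches LGG-3 to ATG-5, was at 4.60 CPM per kilobase, and it was the only member below the median, with 73 to 107 counts per library. The remaining genes lay between 9.27 (the protease gene atg-4.2) and 135.8 CPM per kilobase (ragc-1).

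**Figure D1:**
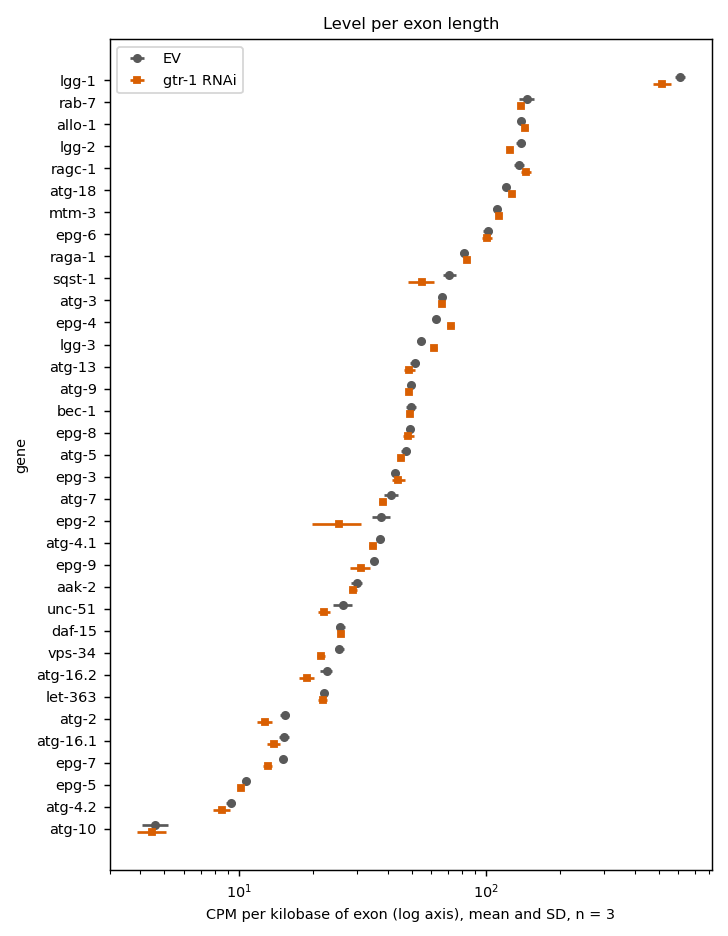
Level of each of the 35 genes per kilobase of exon, on a log axis, as mean and SD of 3 EV libraries (grey circles) and 3 gtr-1 RNAi libraries (orange squares). The highest EV level is 608.8 CPM per kilobase (lgg-1) and the lowest 4.60 (atg-10), and the markers of the groups lie close together for most genes.

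The comparison asked which of these genes differed between worms fed the gtr-1 construct and worms fed the empty vector. By DESeq2, the genes lower under the gtr-1 RNAi label were 2 of 3 cargo receptor genes, 2 of 5 initiation genes, 2 of 11 conjugation genes, 1 of 3 lipid kinase genes and 1 of 6 genes for membrane supply and lipid binding. The ER membrane gene epg-4 was higher, and 0 of 5 TOR and AMPK genes were called. By the edgeR quasi-likelihood test, 0 of 35 genes were called in either direction at an adjusted p under 0.05, where 0% of 14683 genes tested were called higher and 0% lower. The smallest adjusted p of a member by this test was 0.112, which was also the smallest over all genes. Before adjustment, 10 members were lower at p under 0.05 by edgeR, against a background of 15.3%, and 3 were higher, against 12.9%. The DESeq2 Wald test called 8 members lower (22.9% of them, against 6.26% of genes tested) and 1 higher (2.86%, against 5.80%). These backgrounds are not matched to the members in level (median percentile 78.5) or in precision (median edgeR SE 0.048, against 0.14 over all genes). In bulk RNA from whole worms, fewer cells of a type and less RNA per cell cannot be told apart.

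More members had lower than higher values, by small amounts. Of 35 log2 fold changes (gtr-1 RNAi relative to EV, edgeR), 26 were negative (74.3%), against 50.5% of all genes tested, and their median was -0.055, against -0.0025 over all genes. The median was 0.035 for the 6 genes of membrane supply and lipid binding and 0.0031 for the 5 nutrient-sensing genes, and the 95% interval held 0 for 22 of the 35. The summed level of all 35 genes was 4004, 4034 and 4059 CPM in EV 1, 2 and 3, and 3812, 3808 and 3912 CPM in RNAi 1, 2 and 3. The groups did not overlap, and RNAi 3 was the nearest to EV. This sum is weighted to genes of high level and was not compared with sums of other genes. Its largest parts were mtm-3, with means of 438.7 CPM in EV and 447.4 in gtr-1 RNAi libraries, and lgg-1, with 431.0 and 365.7. The CPM of single genes did not overlap between the groups for 12 members that were lower, where the background is 19.6%, and for 4 that were higher, where it is 16.6%. The precision was narrow for most members: the median SE of their log2 fold changes was 0.048, against 0.14 over all genes, and for 21 of 35 the whole 95% interval lay within 0.25 of 0.

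**Figure D2:**
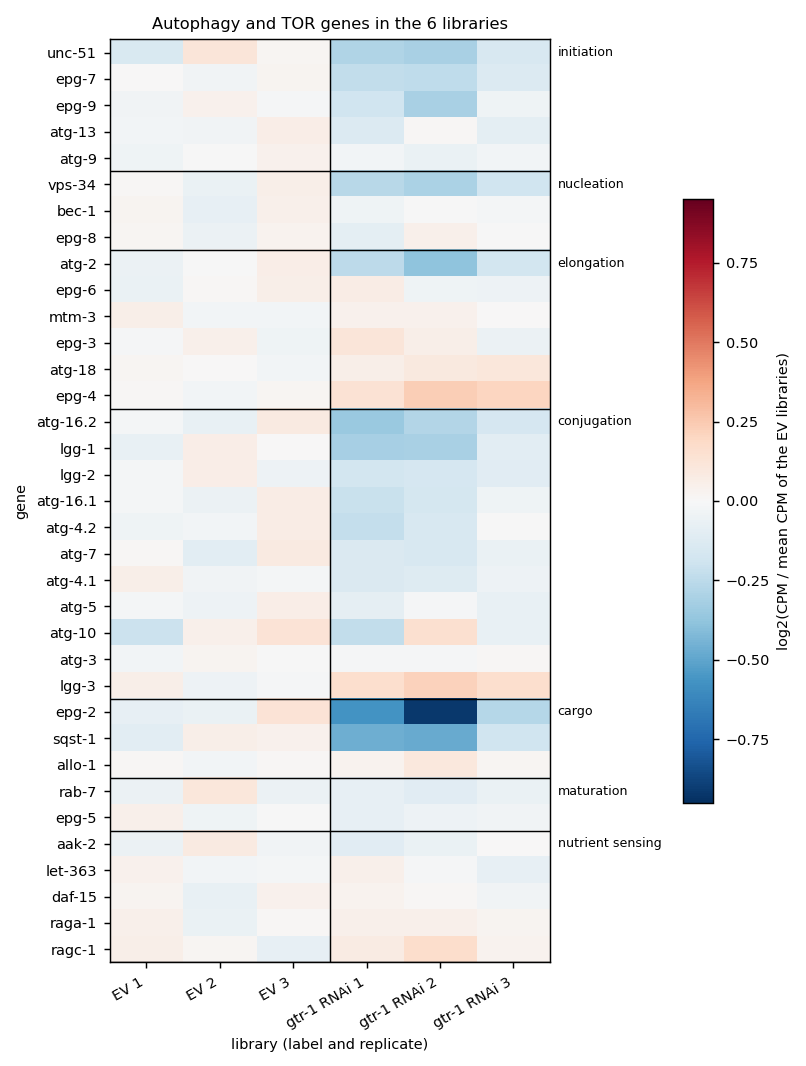
Each cell gives log2 of a gene's CPM over its mean in the EV libraries, for 35 genes (rows, grouped by role) and 6 libraries (columns). Blue cells, below the EV mean, gather in RNAi 1 and 2 among initiation, conjugation and cargo genes and are paler in replicate 3, while the nutrient-sensing rows stay near white.

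The lead among cargo genes was taken by sqst-1 and epg-2. The gene sqst-1 (WBGene00011737, chromosome IV, 12034282 to 12036891 of WBcel235, + strand) encodes the worm p62, which binds ubiquitin-marked cargo and is itself removed by autophagy. Its levels were 149.3, 166.1 and 165.2 CPM in EV 1, 2 and 3, and 116.3, 114.7 and 140.7 CPM in RNAi 1, 2 and 3. All 3 gtr-1 RNAi libraries were below all EV libraries, with replicate 3 closest to them. The log2 fold change was -0.37 ± 0.09 SE (95% interval -0.58 to -0.16, adjusted p = 0.112 by edgeR), and DESeq2 called it lower (adjusted p = 0.00154).

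The nematode gene epg-2 (WBGene00021468, chromosome I, 2300086 to 2302813, + strand) encodes a coiled-coil adaptor that links germ granule proteins to autophagosomes in embryos. It had 81.3, 82.1 and 94.0 CPM in the EV libraries and 57.8, 45.4 and 71.2 CPM in the gtr-1 RNAi libraries. This was the widest difference of the 35 genes, at a log2 fold change of -0.56 ± 0.17 SE (interval -0.99 to -0.13, adjusted p = 0.127 by edgeR, and adjusted p = 0.00252 by DESeq2). Exons of tpxl-1 cover 78 bases of epg-2 on the opposite strand, and the strand setting of the counting is not given in the sources used here. Without EV 3 or without RNAi 1, DESeq2 called neither sqst-1 (adjusted p = 0.0596 and 0.0783) nor epg-2 (0.0949 and 0.0808), and without RNAi 2 it did not call sqst-1 (0.0543). The third receptor gene, allo-1, was at 182.8 to 187.9 CPM in EV and 188.7 to 199.5 CPM in gtr-1 RNAi libraries, a log2 fold change of 0.051 (interval -0.031 to 0.13).

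**Figure D3:**
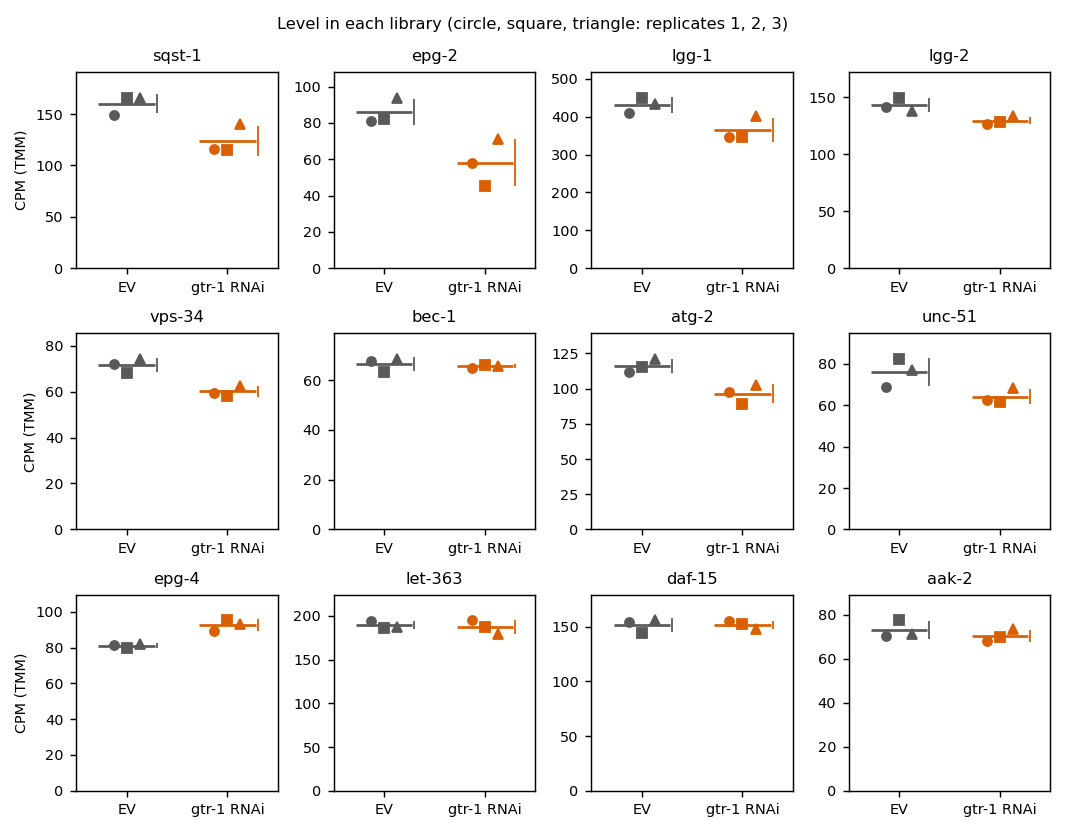
CPM of 12 genes in each library, with circles, squares and triangles for replicates 1, 2 and 3, horizontal bars for group means and vertical bars for the SD (n = 3). For sqst-1, epg-2, lgg-1, vps-34 and atg-2 all gtr-1 RNAi points are under all EV points, for epg-4 they are above, and for let-363, daf-15, bec-1 and aak-2 they overlap.

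Among the 11 genes of the conjugation systems, which attach ubiquitin-like proteins to lipid or to ATG-5, 10 had negative log2 fold changes, and DESeq2 called 2 lower and 0 higher. The gene lgg-1 (WBGene00002980, chromosome II, 6346960 to 6347719, - strand) was at 409.5, 451.0 and 432.6 CPM in EV 1, 2 and 3, and 346.9, 347.9 and 402.2 CPM in RNAi 1, 2 and 3. The third gtr-1 RNAi library stood just under the lowest EV library. The log2 fold change was -0.24 ± 0.07 SE (interval -0.39 to -0.083, adjusted p = 0.112 by edgeR, adjusted p = 0.0117 by DESeq2). DESeq2 called it with EV 1 or RNAi 3 left out, and not with EV 2 (adjusted p = 0.0908), EV 3 (0.117), RNAi 1 (0.160) or RNAi 2 (0.143) left out.

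Its relative lgg-2 (WBGene00002981, chromosome IV, 10934196 to 10935903, - strand) had a smaller difference. Its levels of 141.8, 149.7 and 138.3 CPM in EV and 126.9, 128.4 and 133.2 CPM in gtr-1 RNAi libraries did not overlap. The log2 fold change was -0.15 ± 0.04 SE (interval -0.24 to -0.051), with an adjusted p of 0.112 by edgeR and 0.0516 by DESeq2. For the third ubiquitin-like gene, lgg-3, the worm ATG12, the values pointed the other way. It was at 23.6, 21.9 and 22.5 CPM in EV and 25.3, 26.4 and 25.3 CPM in gtr-1 RNAi libraries, again with no overlap (log2 fold change 0.18 ± 0.06 SE, interval 0.035 to 0.32, adjusted p = 0.130 by edgeR and 0.129 by DESeq2).

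ATG-16 proteins bind the ATG-5 conjugate and place it on the growing membrane. Of the 2 genes for them, atg-16.2 (WBGene00019427, chromosome II, 6450889 to 6453391, - strand) was at 41.9, 40.6 and 45.2 CPM in EV and 33.37, 35.04 and 38.20 CPM in gtr-1 RNAi libraries. Its groups did not overlap, the log2 fold change was -0.26 ± 0.07 SE (interval -0.42 to -0.10, adjusted p = 0.112 by edgeR), and DESeq2 called it lower (adjusted p = 0.0290). That call was made in 2 of the 6 fits with 1 library left out, those without EV 2 and without RNAi 3. In the fits without EV 1, EV 3, RNAi 1 or RNAi 2, its DESeq2 adjusted p was 0.0664, 0.166, 0.190 and 0.145. The paralog atg-16.1 was at 27.2 to 29.7 CPM in EV and 24.4 to 27.5 CPM in gtr-1 RNAi libraries, and its interval of -0.30 to 0.025 held 0. The enzymes of the system were not called by either test. The log2 fold changes were -0.11 for atg-7, the activating enzyme, -0.10 and -0.12 for the proteases atg-4.1 and atg-4.2, and -0.055 for atg-5. For the conjugating enzymes atg-3 and atg-10 they were -0.0046 and -0.041, and atg-10, with its low counts, had the interval -0.46 to 0.38.

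All 5 genes of the initiation step had negative log2 fold changes, and DESeq2 called 2 of them lower. The kinase gene unc-51 (WBGene00006786, chromosome V, 19995986 to 20004485, - strand), the worm ULK1, is also needed for axon growth. It was at 68.9, 82.4 and 77.2 CPM in EV 1, 2 and 3, and 62.4, 61.6 and 68.4 CPM in RNAi 1, 2 and 3. The gap between the groups was narrow, with EV 1 just above RNAi 3, and the log2 fold change was -0.25 ± 0.07 SE (interval -0.42 to -0.080, adjusted p = 0.116 by edgeR, adjusted p = 0.0350 by DESeq2).

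The scaffold gene epg-7 (WBGene00020334, chromosome X, 7334714 to 7340268, + strand), related to FIP200 and ATG11, connects SQST-1 to the autophagy machinery. It had 68.1, 66.2 and 69.1 CPM in EV and 57.8, 57.3 and 61.95 CPM in gtr-1 RNAi libraries, with no overlap (log2 fold change -0.20 ± 0.04 SE, interval -0.30 to -0.098, adjusted p = 0.112 by edgeR, adjusted p = 0.0226 by DESeq2). Neither gene was called by DESeq2 without EV 3, RNAi 1 or RNAi 2 (adjusted p from 0.120 to 0.211). Leaving out EV 1 also ended the call of epg-7 (adjusted p = 0.0567), and leaving out EV 2 that of unc-51 (adjusted p = 0.163). The ATG101 gene epg-9 was at 47.5, 49.96 and 48.1 CPM in EV and 42.6, 39.2 and 47.1 CPM in gtr-1 RNAi libraries (log2 fold change -0.18 ± 0.07 SE, with an adjusted p of 0.158 in edgeR and 0.164 in DESeq2). Its groups were apart only by a small margin, since RNAi 3 was close to EV 1. The membrane protein gene atg-9, at 174.1, 178.3 and 184.6 CPM in EV and 175.8, 171.7 and 176.1 CPM in gtr-1 RNAi libraries, overlapped (log2 fold change -0.036, interval -0.12 to 0.045). So did atg-13, the regulatory partner of UNC-51 (-0.069, interval -0.18 to 0.046).

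Of the members in the lipid kinase complex, DESeq2 called the gene of the catalytic subunit lower and called neither of the 2 others. The gene vps-34 (WBGene00006932, chromosome I, 6028486 to 6033458, + strand) encodes the kinase that makes phosphatidylinositol 3-phosphate. It was at 71.8, 68.2 and 74.2 CPM in EV 1, 2 and 3, and 59.5, 58.1 and 62.6 CPM in RNAi 1, 2 and 3. No value of one group fell within the other, and the log2 fold change was -0.25 ± 0.05 SE (interval -0.36 to -0.14, adjusted p = 0.112 by edgeR, adjusted p = 0.00548 by DESeq2). This unadjusted edgeR p of 0.000828 was the smallest among the 35 genes. DESeq2 did not call it without EV 3 (adjusted p = 0.0613), RNAi 1 (0.0783) or RNAi 2 (0.0606). The Beclin gene bec-1 was at 67.7, 63.1 and 68.6 CPM in EV and 64.7, 66.2 and 65.7 CPM in gtr-1 RNAi libraries, where the groups overlapped (log2 fold change -0.020, interval -0.12 to 0.078). The ATG14 gene epg-8 gave -0.017 (interval -0.13 to 0.093).

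Genes for membrane supply and for reading the lipid mark went in both directions, with 4 of 6 log2 fold changes positive. The lipid transfer protein gene atg-2 (WBGene00019748, chromosome X, 6806763 to 6817266, + strand) was at 111.5, 115.5 and 121.2 CPM in EV and 97.5, 89.2 and 102.7 CPM in gtr-1 RNAi libraries. All gtr-1 RNAi values were below the EV values (log2 fold change -0.27 ± 0.06 SE, interval -0.40 to -0.13, adjusted p = 0.112 by edgeR, adjusted p = 0.00504 by DESeq2). Its DESeq2 call was lost without EV 3 (adjusted p = 0.0821), RNAi 1 (0.0731) or RNAi 2 (0.0537). The gene epg-4 (WBGene00018150, chromosome III, 7182167 to 7184054, + strand), the worm EI24, encodes an endoplasmic reticulum protein needed for autophagosomes to mature. It was at 81.6, 79.6 and 82.0 CPM in EV and 89.1, 95.3 and 93.4 CPM in gtr-1 RNAi libraries. Here RNAi 3 lay with its own group, well above EV, and the log2 fold change was 0.19 ± 0.04 SE (interval 0.10 to 0.28, adjusted p = 0.112 by edgeR, adjusted p = 0.00848 by DESeq2). Its call was lost in 1 of the 6 fits with a library left out, that without RNAi 2 (adjusted p = 0.0568 by DESeq2).

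ATG-18 binds phosphatidylinositol 3-phosphate and works with ATG-2. The gene atg-18 was at 218.8, 217.1 and 212.2 CPM in EV and 225.0, 230.6 and 232.6 CPM in gtr-1 RNAi libraries, with no overlap but a small log2 fold change of 0.087 ± 0.03 SE (interval 0.012 to 0.16, adjusted p = 0.140 by edgeR and 0.108 by DESeq2). The VMP1 gene epg-3 (0.042), the lipid phosphatase gene mtm-3 (0.028) and the second lipid-binding gene epg-6 (-0.0055) had intervals that held 0. Of the genes for fusion with lysosomes, the tether gene epg-5 was at 80.2, 75.4 and 77.4 CPM in EV and 73.5, 74.9 and 75.7 CPM in gtr-1 RNAi libraries (log2 fold change -0.056, interval -0.14 to 0.031). The late endosome GTPase gene rab-7 gave -0.085 (interval -0.20 to 0.032), although its 107.3 to 110.6 CPM in gtr-1 RNAi libraries lay below the 111.2 to 124.4 CPM of EV. Exons of W03C9.5 share 47 bases with rab-7 on the same strand.

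**Figure D4:**
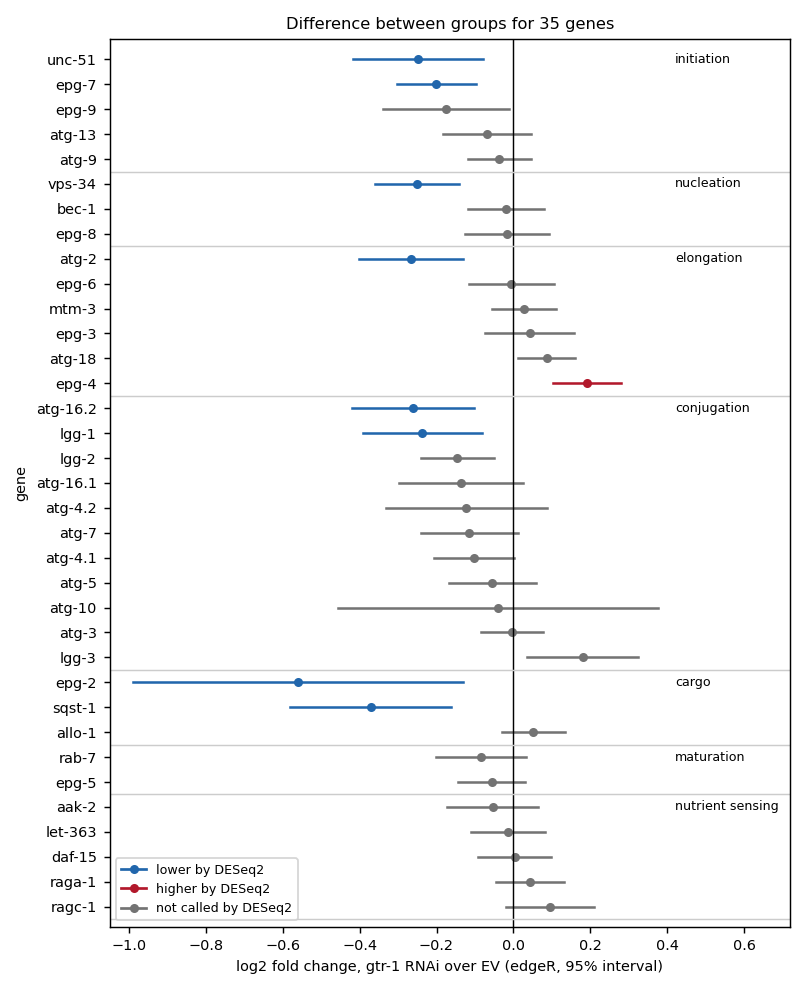
Log2 fold change of gtr-1 RNAi over EV with its 95% interval (edgeR) for 35 genes grouped by role, colored by the DESeq2 call at an adjusted p under 0.05. The 8 blue genes lie between -0.56 (epg-2) and -0.20 (epg-7), the red one is epg-4 at 0.19, and the 5 nutrient-sensing genes all have intervals that cross 0.

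None of the 5 nutrient-sensing genes was called by either test, and the groups overlapped for all of them. The TOR kinase gene let-363 (WBGene00002583, chromosome I, 5245743 to 5263424, + strand) was at 194.5, 185.9 and 186.9 CPM in EV and 195.1, 187.5 and 179.0 CPM in gtr-1 RNAi libraries. Its log2 fold change was -0.014 ± 0.04 SE (interval -0.11 to 0.082). The gene daf-15, for the TORC1 subunit Raptor, was at 154.0, 144.2 and 156.1 CPM in EV and 155.0, 152.4 and 147.9 CPM in gtr-1 RNAi libraries (log2 fold change 0.0031, interval -0.092 to 0.099).

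The Rag GTPases carry the amino acid signal to TORC1 at the lysosome. The gene raga-1 was at 106.3, 98.8 and 103.8 CPM in EV and 106.6, 106.6 and 104.9 CPM in gtr-1 RNAi libraries (log2 fold change 0.042, interval -0.046 to 0.13), and its partner ragc-1 gave 0.095 (interval -0.019 to 0.21). The AMPK catalytic subunit gene aak-2 was at 70.2, 77.5 and 71.3 CPM in EV and 67.8, 69.9 and 73.3 CPM in gtr-1 RNAi libraries, so that RNAi 3 lay within the EV range, and the log2 fold change was -0.054 (interval -0.17 to 0.063). Exons of mec-4 cover 78 bases of aak-2 on the opposite strand. Such an overlap was found for 8 members, and was longest for atg-13 (134 bases), daf-15 (107 bases, with col-121) and atg-4.1 (100 bases).

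The calls depended on which libraries were in the fit. Without RNAi 3, edgeR called 10 members lower and epg-4 higher, against backgrounds of 14.99% lower and 8.77% higher, and DESeq2 called the same 11 genes, against 13.6% and 10.4%. These 10 were the 8 genes called lower by DESeq2 in all 6 libraries plus lgg-2 and epg-9. DESeq2 called 6 members lower and 1 higher without EV 1 (backgrounds 4.64% and 5.22%), and 6 lower and 1 higher without EV 2 (1.51% and 2.19%). It called 0 lower and 1 higher without EV 3 (0.475% and 1.13%), and 0 lower and 1 higher without RNAi 1 (0.306% and 0.725%). Without RNAi 2 it called 1 lower, epg-2, and 0 higher (1.04% and 1.25%). The higher gene was epg-4 each time. No member was called by DESeq2 in all 6 such fits, where 0.572% of genes tested were called higher and 0.238% lower. The level in RNAi 3 was nearer to the EV mean than the mean of the other two for 27 of 35 members (77.1%), and for 71.6% of all genes tested. It lay within the EV range for 15 members (42.9%), and for 44.4% of all genes tested.

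**Figure D5:**
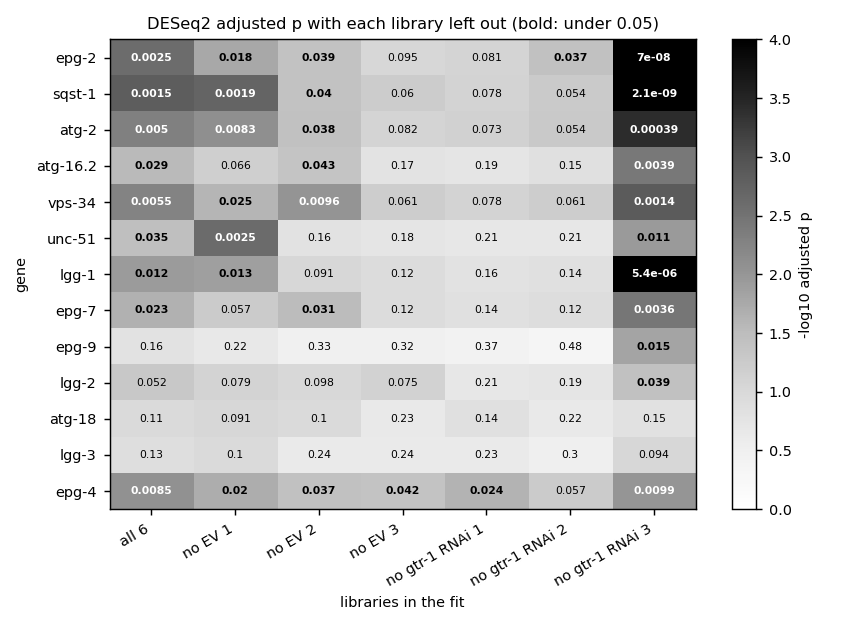
DESeq2 adjusted p of the 13 members with an unadjusted edgeR p under 0.05, in all 6 libraries (first column) and with each library left out; darker cells have smaller values and bold ones are under 0.05. The column without RNAi 3 is the darkest for most genes, and epg-4 is under 0.05 in 5 of the 6 left-out fits.

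Other genes of the pathway were taken from 5 lists that hold no member. Of 14 TOR partners, 11 had positive log2 fold changes (median 0.068), 0 were called by edgeR, and DESeq2 called 1 lower, where 6.26% of all genes were. A share of 1 in 14 is near that background. The gene was flcn-1, the worm folliculin, which acts on the Rag GTPases. It was at 178.3, 180.1 and 192.6 CPM in EV and 154.8, 155.5 and 173.4 CPM in gtr-1 RNAi libraries (log2 fold change -0.19 ± 0.05 SE, with an adjusted p of 0.116 in edgeR and 0.0366 in DESeq2). DESeq2 called it without RNAi 3 and in none of the other 5 fits with a library left out (adjusted p from 0.0533 to 0.229). The gene rheb-1, for the GTPase that turns on TORC1, was at 53.3, 49.96 and 49.7 CPM in EV and 54.1, 56.7 and 59.0 CPM in gtr-1 RNAi libraries (0.15 ± 0.05 SE, adjusted p = 0.125 by edgeR and 0.1001 by DESeq2). The S6 kinase gene rsks-1, a substrate of TORC1, was at 293.5 to 303.5 CPM in all 6 libraries (log2 fold change -0.0022, interval -0.075 to 0.071).

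Of 13 AMPK partners, 9 had negative log2 fold changes (median -0.055), and DESeq2 called 1 lower, the gamma subunit gene aakg-4, again a share near the background of 6.26%. It was at 13.02, 15.1 and 15.3 CPM in EV and 11.4, 10.2 and 11.9 CPM in gtr-1 RNAi libraries (-0.38 ± 0.11 SE, adjusted p = 0.112 by edgeR and 0.0368 by DESeq2). That call held without EV 1 or RNAi 3 and was lost in the other 4 such fits (adjusted p by DESeq2 from 0.133 to 0.181). Of 7 transcription factors tied to autophagy, DESeq2 called 1 lower, against the same background. This was hlh-30, the worm TFEB, which switches on autophagy and lysosome genes. It was at 106.2, 137.1 and 118.0 CPM in EV and 91.8, 82.4 and 103.1 CPM in gtr-1 RNAi libraries, with no overlap (log2 fold change -0.38 ± 0.12 SE, interval -0.67 to -0.095, adjusted p = 0.125 by edgeR and 0.00824 by DESeq2). Without EV 2, EV 3, RNAi 1 or RNAi 2, DESeq2 did not call hlh-30 (adjusted p from 0.0904 to 0.133). Of 17 genes for autophagosome maturation and fusion with counts (median -0.0013) and 5 for mitophagy (median 0.084), neither test called any, where DESeq2 called 6.26% of genes lower and 5.80% higher. Before adjustment, edgeR had 2 higher and 2 lower of the former at p under 0.05, and 1 higher and 0 lower of the latter.

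The tissue marker lists, measured in the same libraries, also had unequal shares of higher and lower genes, except for the epidermis. In the neuron list 8 of 10 genes had negative log2 fold changes (median -0.24), with summed levels of 378.1 to 421.6 CPM in EV and 391.5 to 410.0 CPM in gtr-1 RNAi libraries. In the germline and oocyte list 9 of 10 were positive (median 0.13), with summed levels of 9591 to 10040 CPM and 10220 to 11150 CPM. Intestine markers were positive for 7 of 10 genes (median 0.23, 1409 to 1818 CPM against 1700 to 2122 CPM) and muscle markers for 6 of 9 (median 0.16, 1202 to 1880 CPM against 1658 to 1956 CPM). Epidermis markers were split 5 and 5 (median -0.069, 431.3 to 509.4 CPM against 287.0 to 415.8 CPM). Their widest log2 fold changes were -1.85 for wrt-2, -1.67 for sqt-3, -1.44 for dpy-7 and 1.54 for bli-1, whose groups did not overlap. With all 6 libraries none of these 4 was called, and DESeq2 gave no adjusted p for bli-1. That gene had only 8 to 39 counts per library. Without RNAi 3, DESeq2 called wrt-2, sqt-3 and dpy-7 lower (adjusted p = 9.1e-24, 6.0e-10 and 4.6e-21) and bli-1 higher (0.0068). That fit called 13.6% of all genes tested lower and 10.4% higher. It was the only fit with a library left out in which DESeq2 called any of these 4 genes. With all 6 libraries, the DESeq2 adjusted p was 0.144 for wrt-2, 0.114 for sqt-3 and 0.102 for dpy-7. With all 6 libraries edgeR called 0 of 49 markers. At an unadjusted p under 0.05 by edgeR, 13 were higher and 5 lower, against 12.9% and 15.3% of all genes tested. In the same 6 libraries, DESeq2 called 5 germline and oocyte, 4 intestine and 1 epidermis markers higher, where 5.80% of all genes tested were. It called 2 neuron markers (unc-13 and unc-31) lower, where 6.26% of all genes tested were, and 0 muscle markers. No listed marker with a row in the table was at 0, and the part of these shifts in the results above was not tested.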

How the data were processed

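Stranded mRNA libraries were made from pooled whole worms, per the labels' protocols. Per the submitters' processing notes the tools were STAR and HTSeq and the build WBcel235. No versions or strand setting are given there. The deposited table gives raw counts per gene for 22407 genes, which were tested, and normalized counts, a signal the authors made by dividing counts by 1 factor per library per the file headers, which were not. The columns taken as gtr-1 RNAi are headed GTOL (counts) or GTROL (normalized counts) and a number, which is not the wording of the titles. They were matched to the gtr-1 RNAi titles by the GT start and the number alone. What OL stands for is not stated. Exon lengths, coordinates and overlaps came from Ensembl's WBcel235 annotation.

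All genes were fitted together, gtr-1 RNAi against EV without covariates. Genes passing filterByExpr (14683) were scaled by TMM and tested with edgeR 4.0.16 (quasi-likelihood, robust, R 4.3.3), with Benjamini-Hochberg adjustment over all of them and a threshold of 0.05. DESeq2 1.42.0 (independent filtering at 0.05) and limma 3.58.1 (voom) were alternatives. SE and 95% intervals are edgeR's. CPM are TMM-adjusted. Total counts were at least 33254426 per library. Counting error was not measured on its own. It weighs most on genes with few counts: atg-10 (73 to 107 per library), then atg-4.2 (476 to 642) and lgg-3 (772 to 1053). All members are named. Values per library are given for main genes of each role, for members with an unadjusted edgeR p under 0.05 or a DESeq2 call, and for pathway genes called by DESeq2 or central to TOR. Members and lists were chosen with earlier results of these data known.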

Additional observations from a re-analysis of the deposited data

How the results depend on the processing

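Among 40 named genes, 773 of 920 values under another setting kept the direction and the side of the threshold. In 90 the direction held and the adjusted p passed 0.05, in 0 a call was lost (edgeR had made none), and in 57, from 12 genes, the sign changed. With other scaling, other filters on low counts, unweighted voom, edgeR without robust estimation (added after the data were seen), without the 10 most abundant genes or at an adjusted p under 0.1, 0 members were called in either direction. DESeq2 called 8 members lower and 1 higher, and 3 pathway genes lower. Voom with sample quality weights, also added after the data were seen, called 12 members lower and 2 higher, and 11 pathway genes in each direction, where 3178 of 14683 genes (21.6%) were called lower and 2359 higher. The cause of these differences was not tested. The members' median log2 fold change of -0.055 was -0.094 with quality weights, and -0.11 with library size alone, which moved the median of all genes to -0.060.

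With each library left out in turn, by edgeR or DESeq2, counts ran from 0 to 10 members lower and 0 to 1 higher. For pathway genes, from lists of 14, 13, 7, 17 and 5 genes with counts, they ran from 0 to 7 lower and 0 to 8 higher. The highest counts of pathway genes in both directions came without RNAi 3. The 7 lower were by edgeR, where 14.99% of all genes tested were lower. The 8 higher were by DESeq2, where 10.4% of all genes tested were higher. By edgeR, members were called in 1 of these 6 fits, that without RNAi 3. Members without overlap between the groups ran from 16 to 24 of 35 (45.7% to 68.6%), where 40.9% to 55.4% of all genes had none.

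Same-numbered libraries were checked for pairing by the correlation of their deviations from the group means, which was 0.24, -0.11 and 0.20 for numbers 1, 2 and 3. EV 1 and EV 3 matched the library of their own number best, while EV 2 matched RNAi 3 best. With 3 libraries per group this check cannot decide whether the numbers pair the libraries, and the labels do not say. With the replicate block, edgeR called 6 members lower and 0 higher (backgrounds 3.35% and 3.18%) and 1 pathway gene lower. DESeq2 with the replicate block called 5 members lower and 0 higher (6.16% and 4.83%) and 2 pathway genes lower.

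The 12 genes whose sign changed had edgeR log2 fold changes between -0.041 (atg-10) and 0.051 (allo-1). With library size alone, the log2 fold change was -0.0071 for allo-1, -0.055 for daf-15, -0.017 for epg-3, -0.030 for mtm-3 and -0.016 for raga-1. With DESeq2's size factors in edgeR it was 0.0013 for atg-3, 0.00048 for epg-6 and 0.0039 for rsks-1, by DESeq2 itself 0.0013, 0.00042 and 0.0038, and by DESeq2 with the replicate block 0.0014, 0.00022 and 0.0038. Without a filter on low counts rsks-1 was at 0.0015, and with quality weights epg-6 was at 0.050 and let-363 at 0.039. With 1 library left out, it ran from -0.14 to 0.049 for atg-10, -0.018 to 0.014 for atg-3, -0.053 to 0.013 for bec-1, -0.028 to 0.036 for daf-15, -0.043 to 0.034 for epg-6, -0.042 to 0.026 for epg-8, -0.043 to 0.031 for let-363 and -0.0093 to 0.022 for rsks-1. Depth limits atg-10, whose 73 to 107 counts gave the widest SE of the 35 genes.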

Other observations

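Ratios of levels per kilobase within a library do not depend on how libraries are scaled. For 9 pairs of partner genes, picked after the data were seen, they were compared between groups by a two-sided exact permutation test, whose smallest possible p with 3 against 3 libraries is 0.10. The ratio of bec-1 to vps-34 was 1.98, 1.94 and 1.94 in EV 1, 2 and 3, and 2.29, 2.39 and 2.20 in RNAi 1, 2 and 3 (exact p = 0.10, 0.18 adjusted over the 9 pairs). The ratio of epg-8 to vps-34 was likewise higher in 3 of 3 gtr-1 RNAi libraries, at 1.93 ± 0.025 in EV and 2.27 ± 0.15 in gtr-1 RNAi (mean ± SD, n = 3 each, exact p = 0.10). That of atg-16.2 to its paralog atg-16.1 was 1.49 ± 0.014 against 1.36 ± 0.013 (n = 3 each, exact p = 0.10), and RNAi 3, at 1.37, lay with its own group. The ratio of lgg-3 to atg-5, whose products are joined to each other, was 1.154 ± 0.059 against 1.36 ± 0.0045 (n = 3 each, exact p = 0.10). That of sqst-1 to lgg-1 was 0.117 ± 0.0029 against 0.106 ± 0.0032 (n = 3 each, exact p = 0.10). Adjusted over the 9 pairs, the exact p was 0.18 for each of these ratios. Each pair holds a gene whose own levels did not overlap between the groups, so these ratios are not independent of the values given above. The other 4 ratios overlapped between the groups, with exact p of 0.30 for lgg-2 to lgg-1, 0.80 for atg-4.2 to atg-4.1, 0.70 for daf-15 to let-363 and 0.50 for ragc-1 to raga-1.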
